A study of Mus musculus with 34 samples.

Results

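GFAP+ nuclei sorted from the cortex of control mice were compared with the whole hippocampus of control mice, gene by gene and by rank within each library. The members were the 3 control GFAP+ nuclei libraries (numbers 1, 3 and 4; number 2 of the labels was not analysed here) and the 4 control hippocampus libraries (numbers 1 to 4), 7 of the 34 samples of the series. Control mice carried the floxed Hdac1 alleles without Cre (Hdac1f/f). The same comparison in Hdac1 cKO mice (Hdac1f/f, Nestin-Cre), with 4 GFAP+ nuclei and 5 hippocampus libraries, served as a second set of animals that shares no sample with the first. Nestin-Cre acts in precursors of the brain, so that neurons and astrocytes both lose Hdac1, and neither genotype carried the 5XFAD transgene here. Nuclei were released from frozen cortex of 13-month-old mice, stained with antibodies to GFAP and to NeuN and sorted by flow cytometry, 1 animal per library, and their RNA was copied with the SMART-Seq v4 kit, which covers whole transcripts. The hippocampi came from mice of 13 to 14 months, and their total RNA went into 3' digital gene expression libraries, which count transcript ends. Kit, brain region and RNA compartment therefore differ between the groups in every library and cannot be told apart. There are as many hippocampus libraries as mice of this age given for them in the study, so that each was taken as 1 mouse.

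Astrocytes are the glial cells that take up glutamate and potassium at synapses, couple to each other through gap junctions, line blood vessels with endfeet rich in the water channel aquaporin 4, and supply lipids and lactate to neurons. GFAP, the intermediate filament protein of the sort, is abundant in astrocytes of the white matter, the glia limitans and the hippocampus and lower in most astrocytes of the cortical grey matter. Markers in wider use in the cortex are the glutamate transporters and Aldh1l1, an enzyme of folate metabolism.

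The values were FPKM for 23951 genes in each library. No read counts are given, but the spacing of the lowest values put the depths of the control nuclei libraries at 0.87 to 1.09 times that of library 1, and those of the hippocampus libraries at 1.06 to 2.20 times that of theirs. Each control nuclei library had 13493 to 13829 genes at 1 FPKM or more and each control hippocampus library 12485 to 12848. Genes for microRNAs and small nucleolar RNAs held 34.3 to 37.8% of all FPKM in the control nuclei and 6.82 to 8.33% in the control hippocampus, and 92 to 101 of the 200 highest genes were of this kind in the nuclei against 15 to 17 in the hippocampus. Across genes, log2 values correlated at r = 0.930 to 0.948 among the control nuclei libraries, 0.965 to 0.970 among the control hippocampus libraries and 0.762 to 0.793 between them. Control hippocampus 1 stood apart from the other 3 in genes of the choroid plexus, which are described with and without it.

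To compare ranks, the 7 libraries were given a common distribution of values (rank matching), 1 FPKM was added, and the log2 difference of nuclei minus hippocampus was tested with limma in 15223 genes, those averaging 0.5 FPKM or more. A gene was called at a Benjamini-Hochberg adjusted p under 0.05 and a change of at least 1.5-fold. By this rule 4516 genes (29.7%) were higher in the GFAP+ nuclei and 4969 (32.6%) were lower, so that a list of arbitrary genes would hold calls in both directions. At a threshold of 4-fold the shares were 7.76% and 8.57%. The median difference of all genes was -0.05, and the middle of the distribution ran from -0.99 to 0.89. Without rank matching the median moved to 0.24 and the counts to 5742 higher and 4054 lower, which took the share of higher calls from 47.6% to 58.6%. Differences below are log2 values after rank matching, and FPKM are given as deposited. A two-sided exact permutation test of a single gene cannot go below p = 0.0571 with 3 libraries against 4, and it gave that value for each of the 5 astrocyte markers.

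Hdac1, the gene targeted in the Hdac1 cKO mice, was at 14.5, 9.91 and 22.3 FPKM in the control nuclei and 6.42, 8.71, 10.7 and 5.91 FPKM in the control hippocampus, which overlapped (0.51 ± 0.31, adjusted p = 0.165). Among the fits with 1 library left out, it was called only without control nuclei 3 (0.88, adjusted p = 0.0219). In the Hdac1 cKO mice it was at 9.71, 11.6, 5.80 and 8.73 FPKM in the nuclei and 2.36 to 3.03 FPKM in the hippocampus. The Hdac1 cKO hippocampi thus lay below each control hippocampus, whereas the nuclei libraries labelled Hdac1 cKO and control overlapped. Which exons the allele removes is not given in the sources used here, and the FPKM of a gene do not show whether its reads span them. Hdac2, its closest relative, did not pass (-0.35 ± 0.17; 14.6 to 18.3 against 14.6 to 23.7 FPKM).

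All 5 markers of astrocytes were higher in the control GFAP+ nuclei than in any control hippocampus library. Of all tested genes, 65.7% did not overlap between the groups, counting both directions. Slc1a2, the main glutamate transporter of the forebrain (chr2:102498816-102630941, + strand in mm9), was at 688, 695 and 682 FPKM in the nuclei libraries and at 177, 168, 164 and 141 FPKM in the hippocampus libraries, a difference of 3.30 ± 0.11 (SE; limma, adjusted p = 8.96e-09). Slc1a3, the second astrocyte glutamate transporter (chr15:8584124-8660764, - strand), stood at 848, 800.1 and 845 FPKM against 142, 126, 127 and 120.3 FPKM and differed by 3.84 ± 0.11 (adjusted p = 3.47e-09). Slc1a2 placed at ranks 77 to 84 of the nuclei libraries and 597 to 709 of the hippocampus libraries, and Slc1a3 at 63 to 71 and 723 to 805. Aldh1l1 (chr6:90436421-90550197, + strand) reached 92.3, 70.8 and 82.7 FPKM in the nuclei and 6.07, 15.1, 17.0 and 10.5 FPKM in the hippocampus, with a difference of 3.07 ± 0.28. The groups did not overlap although the hippocampus libraries varied from the lowest, library 1, to the highest, library 3. Aqp4 (chr18:15547903-15562193, - strand) was at 115, 75.5 and 61.3 FPKM in the nuclei and at 24.0, 20.9, 23.2 and 23.6 FPKM in the hippocampus and differed by 2.23 ± 0.24. Gfap itself (chr11:102748650-102762226, - strand) showed the smallest difference of the 5, 1.85 ± 0.20, from 90.2, 73.8 and 53.9 FPKM in the nuclei and 26.6, 23.5, 26.0 and 24.5 FPKM in the hippocampus. Since its protein was the target of the sort, its RNA is a check of the label rather than an independent result. Aqp4 and Gfap were both highest in nuclei library 1 and lowest in library 4, whereas the glutamate transporters varied little among the 3 libraries. In the Hdac1 cKO mice the differences of the 5 genes were 3.30 (Slc1a2), 4.10 (Slc1a3), 3.60 (Aldh1l1), 2.58 (Aqp4) and 2.04 (Gfap). As in any bulk sample, a lower level in the hippocampus may reflect fewer astrocytes or less RNA per astrocyte, which cannot be told apart.

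**Figure D1:**
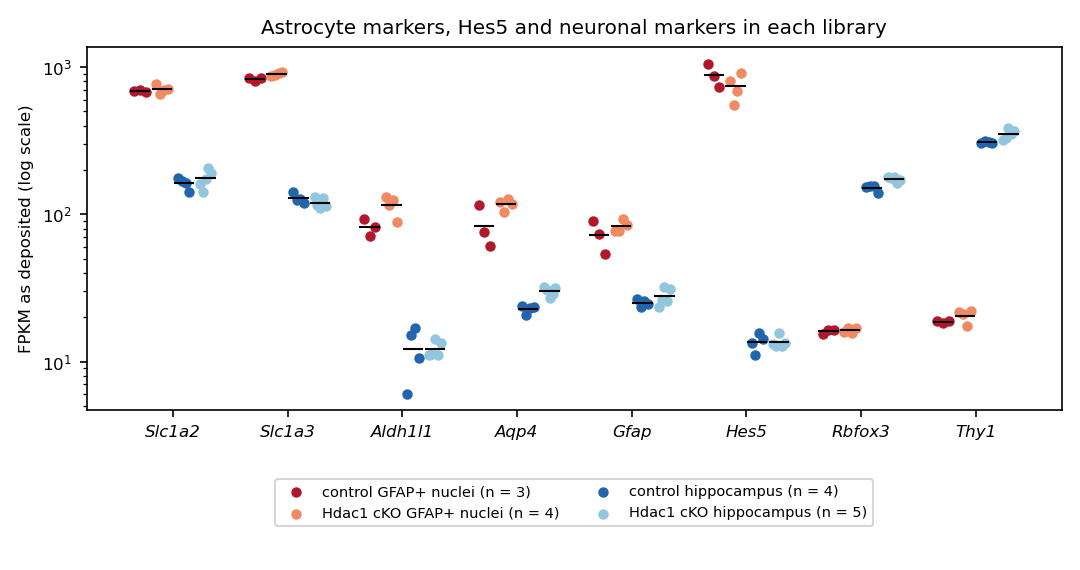
FPKM as deposited (log axis) of 5 astrocyte markers, Hes5 and 2 neuronal genes in each library of the 4 groups; points are libraries and black bars are group means. The control nuclei points of the astrocyte genes all lie above the control hippocampus points, and those of Rbfox3 and Thy1 all lie below them.

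Most genes known from astrocytes were higher in the nuclei. Of 93 tested genes from 7 lists of astrocyte genes, 72 (77.4%) were higher in the control nuclei, 7 (7.53%) were lower and 14 were not called, with a median difference of 2.48, beside 29.7% and 32.6% of all genes. The lists were chosen with earlier results of these data known, and are therefore described by counts and medians only. Of 64 genes from 5 lists of neuronal genes, 2 were higher and 54 lower, with a median of -2.17. The plot of list members shows the astrocyte lists to the right of the middle of all genes, other than the filament and reactive list, and the neuronal lists to the left, other than the cortical layer list.

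**Figure D2:**
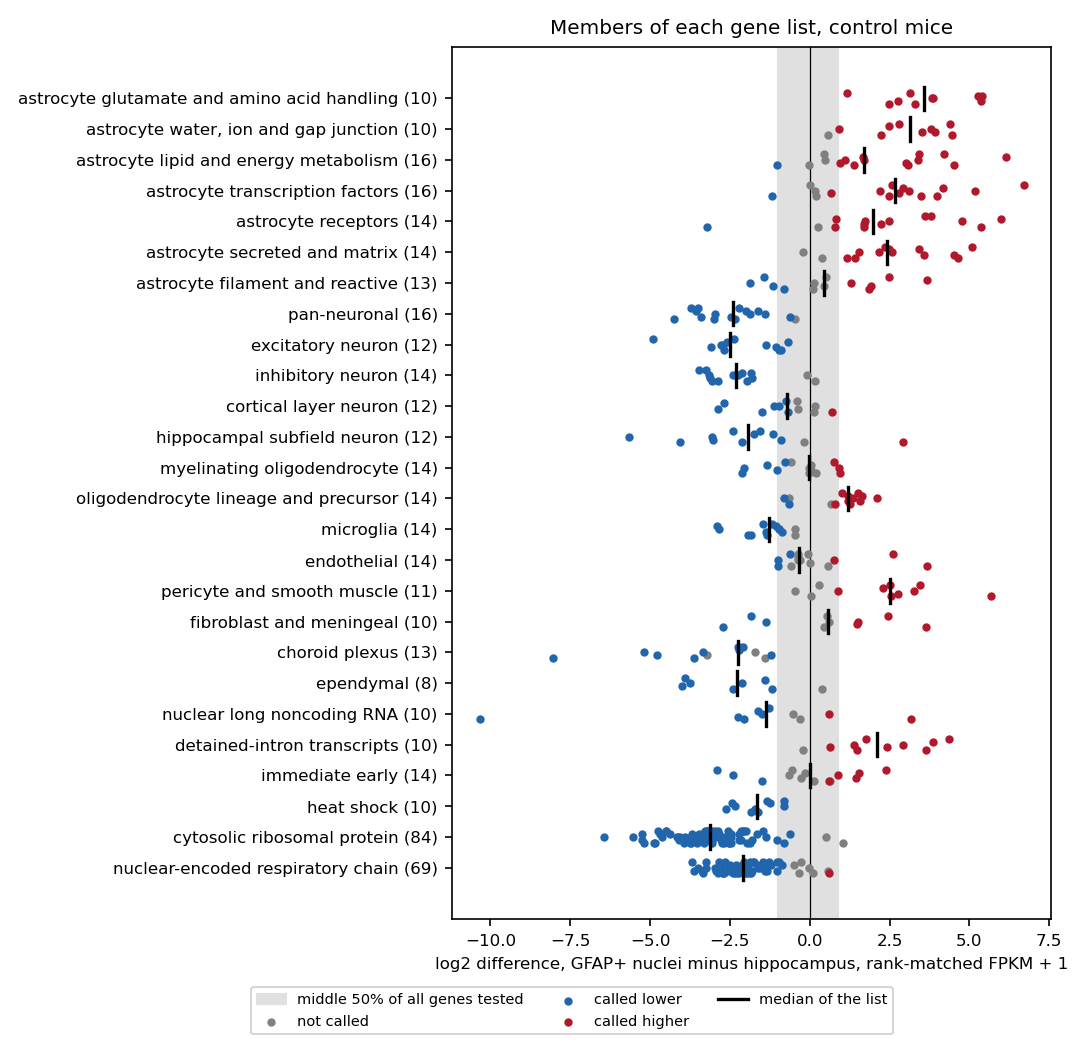
Each point is 1 tested gene of a list, placed at its log2 difference between control GFAP+ nuclei and control hippocampus (rank-matched FPKM + 1); red and blue mark genes called higher and lower, black ticks the median of a list and the grey band the middle of all genes tested, from -0.99 to 0.89. Numbers in brackets are the genes tested, and the lowest point of the long noncoding RNAs is Malat1, listed at 0 in the nuclei.

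All 10 genes for the handling of glutamate and other amino acids were higher in the nuclei (median 3.57), and 9 of them by 4-fold or more. The largest differences were in metabolite transport and breakdown. Prodh, the first enzyme of proline breakdown, was at 268, 252 and 216 FPKM in the nuclei against 7.08, 12.5, 10.6 and 10.1 FPKM in the hippocampus (5.39 ± 0.17, adjusted p = 6.73e-09). Slc38a3, which releases glutamine, was at 309, 338 and 343 against 12.9, 11.9, 19.96 and 13.8 FPKM (5.37 ± 0.16), and Slc7a10, which carries serine and glycine, at 191, 212 and 263 against 7.02, 10.9, 9.97 and 9.94 FPKM (5.25 ± 0.19). These 3 genes lay within the first 261 ranks of each nuclei library and no higher than rank 3558 in any hippocampus library. Glycine handling was represented by the transporter Slc6a9 (2.48) and by Gldc of the glycine cleavage system (2.76). Glul, glutamine synthetase, had the smallest difference of the list (1.15 ± 0.12): its FPKM were close, 192, 178 and 179.8 against 181, 204, 185 and 193, the rank rose from 534 to 585 to 260 to 315, and without rank matching the difference turned to -0.06.

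Among 10 genes for water, ions and gap junctions 9 were higher (median 3.15), and the tenth, the potassium channel Kcnj16, stayed below the fold threshold at 0.57 (adjusted p = 0.0451). Kcnj16 was called without control hippocampus 1 (0.68, adjusted p = 0.0244), without rank matching (0.94, adjusted p = 0.00411), with a replicate block (0.61, adjusted p = 0.0499) and with small RNA genes left out (0.61, adjusted p = 0.0326), and not in the other alternatives. Gja1 and Gjb6 encode the 2 connexins of astrocyte gap junctions. Gja1 was at 511, 424 and 333 FPKM in the nuclei and at 48.6, 34.6, 39.9 and 42.7 FPKM in the hippocampus (4.44 ± 0.16), and Gjb6 differed by 3.81. Atp1b2, a beta subunit of sodium pumps, differed by 3.91. Kcnj10, the main potassium channel of astrocytes, differed least among the called genes (0.90), at 26.6, 35.2 and 35.5 FPKM against 14.6, 14.2, 16.3 and 20.7 FPKM. Gja1, Gjb6 and Atp1b2 sat in the first 222 ranks of each nuclei library.

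Of 16 genes for lipid and energy metabolism 12 were higher, 1 was lower and 3 were not called (median 1.69). Without rank matching 9 were higher and 3 lower (median 1.16), and with small RNA genes left out before rank matching 14 were higher and none lower (median 2.89). Slc27a1, a fatty acid transport protein, had the largest difference, from 8.17, 9.88, 9.85 and 11.1 FPKM in the hippocampus to 418, 412 and 392 FPKM in the nuclei (6.14 ± 0.13, adjusted p = 4.73e-10). Mt3, a brain metallothionein, followed (4.52 ± 0.12; 462 to 568 against 42.4 to 54.0 FPKM), with the phosphatidate phosphatase Ppap2b (4.21), the acyl-CoA synthetases Acsbg1 (3.43) and Acsl6 (3.01), and the glycolytic enzyme Aldoc (1.71). Apoe, the main lipid carrier made by astrocytes, was among the 5 highest genes of each nuclei library, at 7710, 9357 and 7286 FPKM, and at ranks 27 to 29 of the hippocampus libraries, at 4121, 3985, 4525 and 3835 FPKM (1.66 ± 0.08). Mt1, another metallothionein, was the lower gene, at 964 to 1305 FPKM in the nuclei against 5357 to 7131 FPKM (-1.02 ± 0.16), but its sign turned to 0.18 when hippocampal FPKM were multiplied by transcript length and to 0.48 when small RNA genes were left out before rank matching. Fabp7, a fatty acid binding protein, did not pass (-0.04; 41.1 to 62.6 against 58.7 to 90.0 FPKM), but was called higher with the multiplied values.

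Of 16 transcription factors of astrocytes 12 were higher and 1 was lower (median 2.68). The counts were 11 higher and 3 lower (median 2.99) with hippocampal FPKM multiplied by transcript length. Hes5, a repressor switched on by Notch receptors, had the largest difference of any gene in the astrocyte lists. It stood at 1057, 865 and 732 FPKM in the nuclei libraries and at 13.5, 11.1, 15.7 and 14.3 FPKM in the hippocampus libraries (6.70 ± 0.17, adjusted p = 2.15e-09), that is at ranks 46 to 81 against 4262 to 5299. The level was highest in nuclei library 1 and lowest in library 4, and no library of 1 group came near the other. Id4 and Id3, inhibitors of basic helix-loop-helix factors, differed by 5.17 and 3.97, and Id3 ranged from 373 to 1022 FPKM in the nuclei. Gli3 and Gli2, the factors of hedgehog signalling, differed by 4.17 and 2.79, at 27.4, 32.9 and 32.9 FPKM for Gli3 against 0.821, 0.528, 0.953 and 0.356 FPKM. Sox9, which specifies astrocytes, differed by 3.50 ± 0.14 (98.4 to 124 against 12.5 to 15.2 FPKM) and Sox2, a factor of neural stem cells and astrocytes, by 3.11 ± 0.19. Zbtb20 differed by 2.93, but by -0.54 when hippocampal FPKM were multiplied by transcript length. The 3 nuclear factor I genes went another way: Nfix was lower (-1.18 ± 0.13; 12.2 to 14.8 against 26.8 to 30.1 FPKM), while Nfia (0.20) and Nfib (0.17) did not pass, and both were lower, at -1.49 and -1.47, with the multiplied values.

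Because Hes5 led the list, the bases ahead of its start site are shown, from RefSeq (GRCm38.p6, chr4:154960673-154960922, plus strand), with the 7-base word GTGGGAA of the Notch cofactor RBPJ in capitals on either strand (TTCCCAC on the other). The first capitals start 226 bases and the second 83 bases before the start site.
Hes5 promoter: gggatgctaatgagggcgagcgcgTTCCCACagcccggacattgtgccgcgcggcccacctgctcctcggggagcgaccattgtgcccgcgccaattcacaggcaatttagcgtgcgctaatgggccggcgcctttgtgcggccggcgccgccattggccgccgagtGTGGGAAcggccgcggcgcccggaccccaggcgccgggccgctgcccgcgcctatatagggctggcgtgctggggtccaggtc
The word occurs in 1779 of 32851 promoter windows (5.42%), each the 250 bases before a start site. Of the 96 astrocyte genes, 81 had a window, and 7 of these held the word (8.64%; Aldoc, Grm3, Hes5, Mt2, Ncan, Slc27a1 and Tcf7l1), beside 6.18% of all genes with a window. A match of letters is a description and not a binding site.

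Of 14 receptors 12 were higher (median 1.99). The counts were 9 higher and 1 lower (median 1.74) with hippocampal FPKM multiplied by transcript length. Mertk, a receptor for the engulfment of debris, was at 85.1, 126 and 118 FPKM in the nuclei and at 1.46, 1.29, 1.65 and 0.936 FPKM in the hippocampus (5.98 ± 0.21). Fgfr3 was at 288, 273 and 222 against 11.6, 10.6, 11.4 and 10.3 FPKM (5.35 ± 0.13), and its relative Fgfr2 differed by 2.49. The sphingosine 1-phosphate receptor S1pr1 differed by 4.77, Notch1 by 3.79 ± 0.17 (32.6 to 40.3 against 1.27 to 1.88 FPKM), the neurotensin receptor Ntsr2 by 3.62 and the metabotropic glutamate receptor Grm3 by 2.24. All 7 of these genes were higher in each nuclei library than in any hippocampus library. Among all tested genes 65.7% were without overlap, in either direction. Grm5, the other metabotropic receptor of the list, also made by neurons, was the only lower gene, at 4.20, 4.602 and 2.55 FPKM against 39.0, 37.2, 34.8 and 34.4 FPKM (-3.22 ± 0.17). P2ry1, a purine receptor, did not pass (0.26).

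Secreted and matrix genes were higher in 12 of 14 (median 2.42) and lower in none, and the other two, Cst3 (0.38) and S100b (-0.21), did not pass. Itih3, which binds hyaluronan, was at 170.3, 182 and 163 FPKM in the nuclei against 5.40, 4.82, 8.99 and 9.52 FPKM (5.09 ± 0.20), the protease Htra1 at 548 to 724 against 46.0 to 60.4 FPKM (4.64), and the proteoglycan Bcan at 416 to 445 against 35.5 to 52.2 FPKM (4.53). Its relative Ncan differed by 2.37, the matrix glycoprotein Sparc by 1.53 and Sparcl1, which promotes synapse formation, by 1.15, although for Sparcl1 the difference was -0.38 without rank matching. Cst3, an inhibitor of cathepsins, was at ranks 3 to 4 of the nuclei libraries and 5 to 6 of the hippocampus libraries and was the highest protein-coding gene of the nuclei.

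The filament and reactive list, genes of the cytoskeleton and of astrocytes responding to injury, held calls in both directions, as arbitrary genes would. Of 16 genes 13 were tested, 5 were higher, 4 lower and 4 not called (median 0.45), beside 29.7% higher and 32.6% lower of all genes. This median moved from 0.18, with hippocampal FPKM multiplied by transcript length, to 0.87 without rank matching, and was 0.24 without control hippocampus 1, 0.26 without control nuclei 1 and 0.23 without the filter, over 16 genes. Beside Gfap, the complement gene C4b was higher (2.48 ± 0.23; 34.4, 23.8 and 22.5 against 2.36, 2.70, 4.64 and 3.02 FPKM), as were Aspg, an asparaginase homologue (3.66), the sphingosine receptor S1pr3 (1.93) and Osmr, the receptor of oncostatin M (1.28). The intermediate filament genes Vim (-0.82 ± 0.23; 20.2, 14.2 and 11.4 against 19.6, 18.6, 31.0 and 27.6 FPKM) and Synm (-1.88) were lower, and Nes, the nestin gene, did not pass (0.09). Serpina3n, a protease inhibitor of reactive astrocytes, was lower, at 2.33, 6.92 and 6.85 against 15.5, 11.5, 10.5 and 8.67 FPKM (-1.45 ± 0.30). The call of C3, another complement gene (-1.14; 0 to 0.667 against 0.622 to 4.65 FPKM), was lost without control nuclei 1, 3 and 4 in turn (log2 -1.33 to -0.996, adjusted p from 0.0501 to 0.135). Lcn2, Steap4 and Timp1 were under the filter, at most at 0.89 FPKM in any control library.

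Neuronal genes remained in the GFAP+ nuclei at reduced rank. Rbfox3 encodes NeuN, which the second antibody of the stain labels (chr11:118351074-118772911, - strand). It was at 15.4, 16.5 and 16.3 FPKM in the nuclei and at 153, 156, 155 and 139 FPKM in the hippocampus, a difference of -3.01 ± 0.12 (adjusted p = 2.56e-08), and the 3 nuclei libraries were nearly alike. Of 16 pan-neuronal genes 15 were lower and the other one, the synaptic vesicle gene Syp, did not pass (-0.48; median -2.39). The neurofilament gene Nefm differed most, at 5.55, 6.90 and 4.07 FPKM against 122, 129, 111 and 123 FPKM (-4.26 ± 0.15), followed by the surface protein gene Thy1 (-3.71 ± 0.12; 18.8, 18.2 and 18.9 against 305, 315, 309 and 303 FPKM), a second neurofilament gene, Nefl (-3.57), Syt1, the calcium sensor of vesicle release (-3.49), and Stmn2, a microtubule regulator (-3.42). Snap25, of the vesicle fusion machinery, differed less (-1.41) and kept 148, 158 and 101 FPKM in the nuclei against 858, 810.1, 722 and 861 FPKM. All 16 genes were at 1 FPKM or more in each control nuclei library. Their summed FPKM was 505, 562 and 404 in the nuclei libraries and 3530, 3372, 3188 and 3474 in the hippocampus libraries.

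Most genes of both main classes of neuron were lower. All 12 genes of excitatory neurons were lower (median -2.49), led by the transcription factor Neurod6, at 3.19, 2.65 and 3.09 FPKM against 126, 138, 107 and 110.2 FPKM (-4.92 ± 0.15), with its relative Neurod2 (-3.11), the kinase gene Camk2a (-2.78) and the vesicular glutamate transporter Slc17a7 (-0.90; 10.9, 14.0 and 8.90 against 19.2, 18.8, 16.8 and 15.4 FPKM). Of 14 genes of inhibitory neurons 12 were lower (median -2.32). Gad1 and Gad2, which make GABA, differed by -1.97 and -2.39, the vesicular GABA transporter Slc32a1 by -3.24 ± 0.25 (0.162 to 0.432 against 5.65 to 12.9 FPKM), the calcium-binding protein gene Pvalb by -3.11 and the neuropeptide gene Cck by -3.48 ± 0.17. Cck still stood at 81.0, 84.2 and 54.3 FPKM in the nuclei, against 1582, 1643, 1441 and 1324 FPKM in the hippocampus. Adarb2 (0.16, but -0.79 with hippocampal FPKM multiplied by transcript length) and Erbb4 (-0.09) did not pass.

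Neurons of the cortex and of the hippocampus are told apart by genes of layers and subfields. Of 12 genes that mark layers of the cortex 7 were lower, 1 higher and 4 not called (median -0.72), and of 12 genes that mark subfields of the hippocampus 10 were lower and 1 higher (median -1.93). With hippocampal FPKM multiplied by transcript length 9 cortical genes were lower and none higher (median -1.55), and 10 subfield genes were lower and none higher (median -3.74). Without rank matching 4 cortical genes were lower (median -0.37), and with a pseudocount of 0.1 the subfield median was -3.41. Spink8, a gene of CA1 pyramidal cells, was at 0.512, 1.89 and 1.47 FPKM in the cortical nuclei and at 173, 185, 64.0 and 85.2 FPKM in the hippocampus (-5.65 ± 0.34), with the hippocampus libraries 1 and 2 above 3 and 4. Fibcd1, also of CA1, differed by -4.07, and C1ql2 (-3.06), Prox1 (-2.11) and Dsp (-2.40), genes of dentate granule cells, were lower too, with Dsp listed at 0 in 2 of the 3 nuclei libraries. Tdo2, another dentate gene, was lower (-0.92), a call lost without control hippocampus 2 and 4 or nuclei 1 and 4 in turn (log2 -0.81 to -0.75, adjusted p from 0.0579 to 0.0783). The only higher member was Zbtb20, which also belongs to the astrocyte factors above. Among the cortical genes, Bcl11b, of deep-layer neurons and also of hippocampal neurons, was lower (-2.86 ± 0.19; 2.65 to 5.63 against 24.1 to 29.5 FPKM), as was Rasgrf2 of the upper layers (-2.67). Tle4, a corepressor of layer 6, was higher (0.68), a call lost with the multiplied values (0.25, adjusted p = 0.208). Cux2 (0.12) and Rorb (0.18) did not pass, and Rorb was lower, at -1.28, with the multiplied values. The call of Cux1 (-0.76) was lost without control nuclei 1 (log2 -0.58, adjusted p = 0.00877), below the fold threshold.

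Genes of oligodendrocytes, the myelin-forming glia, remained at a high level. Of 14 genes of myelinating cells 3 were higher, 5 lower and 6 not called (median -0.02). None was called higher without rank matching (5 lower, median -0.59) or with percentile ranks (4 lower), and with hippocampal FPKM multiplied by transcript length 2 were higher and 7 lower (median -0.55). Without control hippocampus 2 or 4 or control nuclei 3 or 4, 2 were higher. Mbp, myelin basic protein, was at 349.7, 638 and 363 FPKM in the nuclei libraries 1, 3 and 4 and at 616 to 684 FPKM in the hippocampus. After rank matching it was higher by 0.94, but without it the difference was -0.59, and with the multiplied values it was -0.63. Mog, a glycoprotein of the myelin surface, was at 12.5, 33.8 and 22.3 FPKM against 21.8, 14.1, 21.4 and 23.2 FPKM (-0.03, not called, and 0.83 with the multiplied values), and Mag, the adhesion protein next to the axon, at 17.3, 53.9 and 39.9 against 37.7, 34.6, 45.8 and 33.3 FPKM (-0.01). The groups overlapped in Mog and Mag, with nuclei library 1 lowest and library 3 highest among the nuclei. Cldn11, of the myelin tight junctions, was lower (-2.14), as was Ermn, a cytoskeletal gene (-2.05). Of 14 genes of the oligodendrocyte lineage and its precursors 10 were higher and 2 lower (median 1.20). The counts were 7 higher and 2 lower (median 1.29) with the multiplied values. Cspg4, the NG2 proteoglycan, was at 8.69, 17.7 and 14.3 FPKM against 1.56, 1.68, 2.22 and 0.799 FPKM (2.11 ± 0.29), and the lineage factors Olig1 (1.62 ± 0.25; 50.5, 96.9 and 78.7 against 25.1, 34.8, 35.7 and 34.0 FPKM) and Olig2 (1.27) were higher. The proteoglycan Vcan was higher (0.99), but at -0.54 with the multiplied values, and the sialidase Neu4 was higher (1.56). The calls of Pdgfra, the growth factor receptor of precursors (0.78; 7.82, 12.5 and 7.14 against 3.62, 3.00, 2.01 and 4.21 FPKM), and of Gpr17, of newly formed cells (1.21), were both lost without control nuclei 3, at 0.59 (adjusted p = 0.0802) and 0.86 (adjusted p = 0.0739). Tnr and Enpp6 were lower, and these calls were weak: that of Tnr, a matrix glycoprotein (-0.66), was lost without control nuclei 1 and 4 in turn (log2 -0.57 to -0.56, adjusted p from 0.0556 to 0.0638), and that of Enpp6, of newly formed cells (-0.80), was lost without control hippocampus 2 and 3 or nuclei 1 in turn (log2 -0.74 to -0.59, adjusted p from 0.0564 to 0.0991).

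Genes of microglia, the immune cells of the brain, were lower in 12 of 14 and higher in none (median -1.27), yet 13 of the 14, all but Fcrls, were at 1 FPKM or more in each control nuclei library. With hippocampal FPKM multiplied by transcript length 8 of the 14 were lower (median -1.26). The protease Ctss was at 10.1, 20.3 and 14.8 FPKM against 128, 113, 115 and 117 FPKM (-2.84 ± 0.21), Aif1, which encodes IBA1, at 5.08, 6.19 and 4.17 against 32.9, 40.4, 57.0 and 27.7 FPKM (-2.90), and the purine receptor P2ry12 at 6.22, 5.42 and 2.49 against 17.4, 13.2, 14.7 and 16.9 FPKM (-1.95). The receptor genes Cx3cr1 (-0.97) and Csf1r (-1.19) were lower as well, and Tmem119 did not pass (-0.46; 3.51, 11.6 and 8.74 against 7.53, 7.17, 6.50 and 8.14 FPKM).

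The genes of oligodendrocytes and microglia spanned a wider range among the nuclei libraries than the astrocyte genes did. The summed FPKM of the 14 myelinating genes was 753, 1525 and 1046 in control nuclei 1, 3 and 4, a 2.02-fold range, against 1.05-fold among the hippocampus libraries. The lineage and precursor list summed to 127, 248 and 184 (1.96-fold) and the microglial list to 103, 207 and 160.2 (2.01-fold), while the pan-neuronal list spanned 1.39-fold. Among the 7 astrocyte lists the range ran from 1.04-fold for glutamate handling, at 2722, 2756 and 2824, to 1.45-fold for the filament and reactive list and 1.602-fold for the transcription factors. All 3 glial lists had the same order, with library 1 lowest and library 3 highest. Wide ranges were not particular to them: fibroblast and meningeal genes spanned 1.99-fold, erythroid genes 2.63-fold and choroid plexus genes 7.69-fold. Endothelial genes (1.49-fold) and pericyte and smooth muscle genes (1.48-fold) spanned less. The order was also seen in pericyte and smooth muscle genes (318, 471 and 378), but not in pan-neuronal genes (505, 562 and 404). The Hdac1 cKO nuclei fell into the same kind of range: the myelinating list summed to 521, 645, 1384 and 1342 in libraries 1 to 4 and the microglial list to 70.9, 68.0, 186 and 195, low in libraries 1 and 2 and high in 3 and 4. The part of these lists in the difference of any other gene was not tested. Without control nuclei 1 the myelinating list had 3 higher and 4 lower calls with a median of 0.45, and without control nuclei 3 it had 2 and 6 with a median of -0.45.

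**Figure D3:**
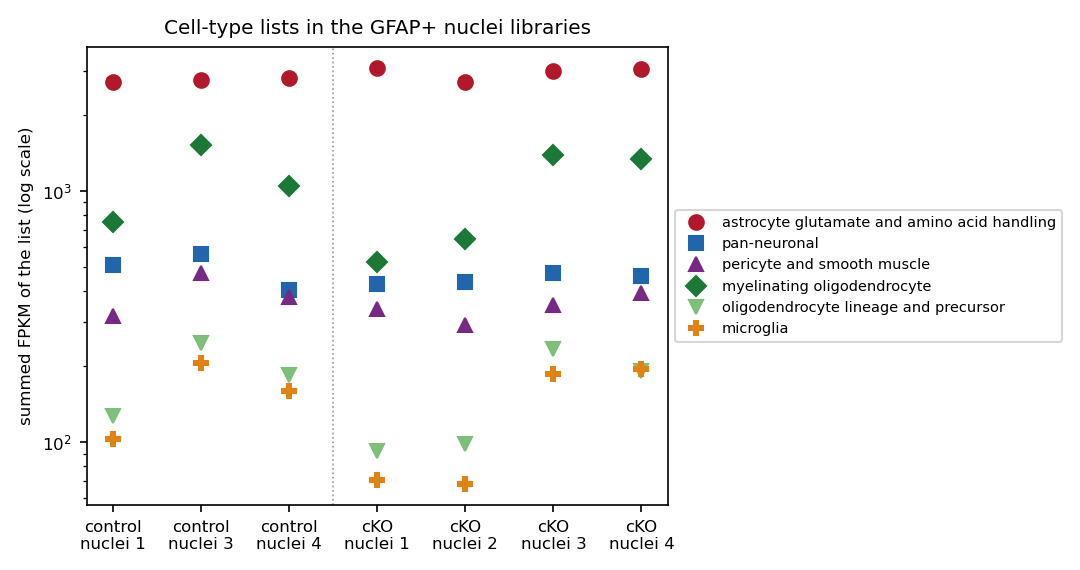
Summed FPKM as deposited (log axis) of 6 lists in the 3 control and 4 Hdac1 cKO GFAP+ nuclei libraries, 1 point per list and library. The points of astrocyte glutamate handling, the astrocyte list of narrowest range in the control nuclei, lie at 2703 to 3092, while the myelinating, precursor and microglial points are low together in control nuclei 1 and Hdac1 cKO nuclei 1 and 2.

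Cells of the vessel wall were represented unevenly. Of 11 tested genes of pericytes and smooth muscle 8 were higher and none lower (median 2.497). Pdgfrb, the growth factor receptor that marks pericytes, was at 70.8, 84.4 and 108 FPKM in the nuclei and at 1.71, 0.914, 1.56 and 0.562 FPKM in the hippocampus (5.68 ± 0.29, adjusted p = 1.29e-07). The pericyte genes Ndufa4l2 (3.46), Kcnj8 (3.27 ± 0.24; 22.0, 40.4 and 24.6 against 1.39, 1.98, 1.90 and 1.16 FPKM) and Vtn (2.77; 98.3 to 197 against 24.9 to 43.3 FPKM) were also higher. In contrast, the pericyte gene Rgs5 (0.05; 14.9 to 16.7 against 10.98 to 14.1 FPKM) and the contractile genes Acta2 (-0.45) and Tagln (0.29) did not pass, and Myh11 of smooth muscle was under the filter, at most at 0.45 FPKM in the control libraries. Of 14 endothelial genes 3 were higher, 3 lower and 8 not called (median -0.34). Over all genes tested 29.7% were higher and 32.6% lower, a background also for the fibroblast and meningeal list below. The endothelial median was 0.14 without rank matching (4 higher, 2 lower) and -0.02 with hippocampal FPKM multiplied by transcript length (5 higher, 4 lower), and leaving out single libraries gave 2 to 4 higher and 2 to 3 lower. The tight junction gene Cldn5 was at 24.9, 43.2 and 29.8 FPKM against 1.26, 1.04, 2.63 and 0.690 FPKM (3.67 ± 0.30) and the glucose transporter Slc2a1, which astrocytes share, at 61.0 to 94.9 against 13.7 to 18.6 FPKM (2.61). Pecam1 (-0.60), Flt1 (-0.31) and Kdr (-0.06), defining genes of the endothelium, did not pass, and Pecam1 and Kdr were at 0.667 to 1.01 and 0.766 to 1.58 FPKM in the nuclei. The surface antigens Ly6a (-0.998) and Ly6c1 (-1.002) were lower, but at 0.72 and 0.60 with the multiplied values. Among 10 genes of fibroblasts and meninges 4 were higher and 3 lower (median 0.57): the collagen genes Col1a1 (3.63; 15.2 to 16.9 against 0.125 to 0.279 FPKM) and Col1a2 (1.51) were higher, and the proteoglycans Dcn (-2.72; 7.66 to 9.46 against 48.9 to 63.3 FPKM) and Lum (-1.39) were lower. With the multiplied values 6 fibroblast and meningeal genes were higher (median 1.38), and without rank matching 6 were (median 0.83). Leaving out any single library other than control hippocampus 1 left 2 lower. Of the perivascular macrophage genes only 3 of 6 were tested (median -1.19), with the chemokine gene Pf4 (-2.62) and the carbonyl reductase gene Cbr2 (-1.19; 0 to 1.24 against 0.513 to 2.84 FPKM) lower and the scavenger receptor Cd163 higher (1.31; 2.63 to 4.39 against 0.138 to 0.696 FPKM), while the call of Cbr2 was lost without control nuclei 4 (-0.94, adjusted p = 0.0701), without rank matching (-0.86, adjusted p = 0.0662) and with the multiplied values (-3.60, adjusted p = 0.174). Mrc1 stayed at 0.351 to 0.493 FPKM and Lyve1 at most at 0.36 FPKM in the nuclei.

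Genes of the choroid plexus, the tissue that makes cerebrospinal fluid, varied widely among the control hippocampus libraries. Ttr, the thyroxine carrier of the choroid plexus, was at 576, 17490, 20150 and 12900 FPKM in control hippocampus 1 to 4 and at 10.7, 6.40 and 132 FPKM in the nuclei (-8.03 ± 2.04, adjusted p = 0.0177), a call lost without control nuclei 1 and 3 in turn (log2 -7.42 to -7.03, adjusted p from 0.0591 to 0.0596). Hippocampus library 1 lay more than an order of magnitude below the other 3. The folate receptor Folr1 was at 5.00, 87.7, 114 and 59.7 FPKM in the hippocampus libraries and at most at 0.38 FPKM in the nuclei (-5.18), the Wnt and BMP inhibitor Sostdc1 at 7.13, 73.1, 85.3 and 38.2 FPKM (-4.77) and Kl, the klotho gene, at 2.19, 15.6, 15.2 and 10.4 FPKM (-2.09). Of 13 genes of the list 9 were lower and none higher (median -2.24; -4.01 with a pseudocount of 0.1 and -6.21 with hippocampal FPKM multiplied by transcript length). Without control hippocampus 1 all 13 were lower (median -3.05), and without control nuclei 1 or control nuclei 3 only 6 were. Aqp1, the water channel of this tissue, was lower (-1.22), a call lost without control hippocampus 2, 3 and 4 or nuclei 1, 3 and 4 in turn (log2 -1.25 to -0.91, adjusted p from 0.0752 to 0.111). In the Hdac1 cKO mice, whose hippocampi had 56.5 to 1608 FPKM of Ttr, 1 of 9 tested genes was lower and 2 higher (median 0.47). Ependymal genes, of the ciliated cells that line the ventricles, were lower in 7 of 8 (median -2.27): the dynein gene Dynlrb2 was at 3.52, 3.61 and 1.80 FPKM against 30.5, 42.1, 78.1 and 89.8 FPKM (-4.00 ± 0.32), Tmem212 at 1.31 to 2.46 against 24.5 to 75.7 FPKM (-3.89), Ccdc153 differed by -2.13 and the cilium regulator Foxj1 by -1.18, and Rarres2 did not pass (0.37).

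**Figure D4:**
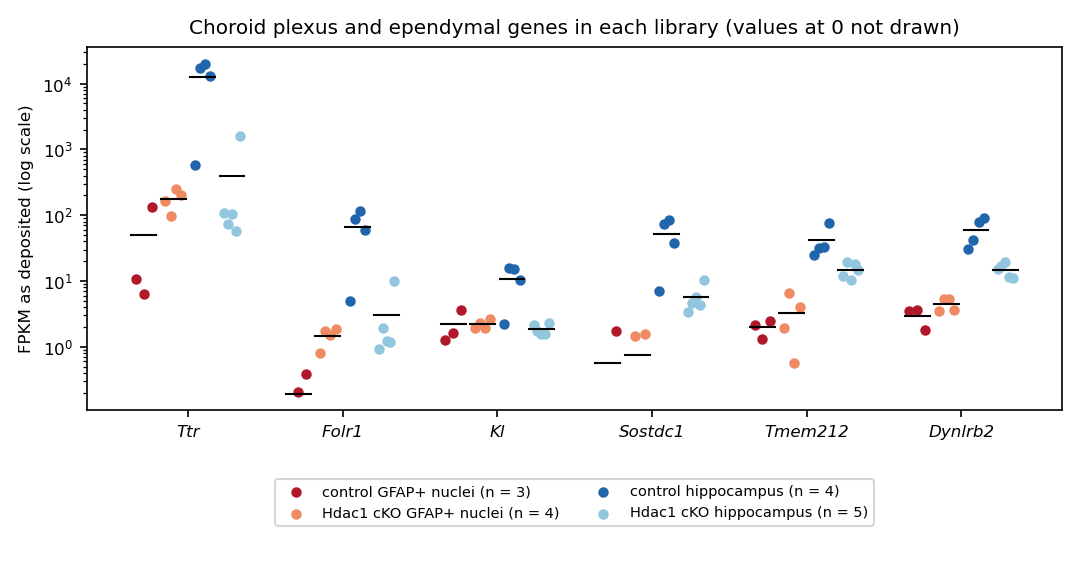
FPKM as deposited (log axis; values at 0 are not drawn) of 4 choroid plexus genes and 2 ependymal genes in each library; points are libraries and black bars are group means. Control hippocampus 1 is the lowest control hippocampus point for Ttr, at 576 FPKM, and for Folr1, Kl and Sostdc1, and lies in the range of the Hdac1 cKO hippocampus.

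Globin genes, of red blood cells, are near-identical copies between which FPKM may split reads, so that single copies are uncertain: Hba-a1 was at 14.9 to 38.7 FPKM in the nuclei and 0.00171 to 0.00390 FPKM in the hippocampus, while Hba-a2 was at 0.0464 to 0.167 FPKM in the nuclei and 158 to 376 FPKM in the hippocampus. The same contrast between copies was seen for Hbb-b1 (9.97 to 36.2 FPKM in the nuclei) and Hbb-bs (539 to 1027 FPKM in the hippocampus). Of 6 tested erythroid genes 2 were higher and 3 lower (median -2.63). With hippocampal FPKM multiplied by transcript length only 4 were tested, 2 higher and 1 lower (median 4.36).

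Genes that every cell uses differed widely as well. Cytosolic ribosomal protein genes were lower in 82 of 84 and higher in none (median -3.13), 73 of them by 4-fold or more: Rps21 was at 63.1, 69.6 and 61.4 FPKM against 5146, 5374, 5542 and 4866 FPKM (-5.55 ± 0.09), and Rps28 (-5.25) and Rpl37 (-5.27) were like it. Nuclear-encoded genes of the respiratory chain were lower in 62 of 69 (median -2.09), led by Cox7c (-3.70), and only Uqcrc1 was higher (0.61), a call lost without control hippocampus 2 and 4 or nuclei 1 in turn (log2 0.52 to 0.58, adjusted p from 0.0115 to 0.0132) and with a difference of -0.17 without rank matching. Genes with transcripts of up to 1878 bases, the first of 4 equal classes of transcript length, had 22.1% higher and 40.4% lower calls (median -0.40), and those of 4416 bases or more 32.7% and 29.5% (median 0.05). With hippocampal FPKM multiplied by transcript length 71 of 83 ribosomal protein genes were lower and 1 higher (median -2.14), and of the respiratory chain genes 47 were lower and 3 higher (median -1.004). The lower calls in both lists were thus fewer, and the medians smaller, with the multiplied values. Without rank matching the respiratory chain median was -3.28. Chaperone genes of the heat shock response were lower in 10 of 10 (median -1.66), from Hspe1 (-2.63) and Hspd1 (-2.44) of mitochondria to Hsph1 (-2.34), Hsp90aa1 (-1.71) and Hspa1a (-1.62). For Hspa8 the difference of -0.80 became 0.01 with small RNA genes left out before rank matching, and the call of Hspa1b (-0.80) was lost without control hippocampus 1, 2 and 4 or nuclei 3 and 4 in turn (log2 -0.80 to -0.67, adjusted p from 0.0730 to 0.105).

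Transcripts known to stay in the nucleus were not all higher. Neat1, the RNA of paraspeckles, was higher, at 99.0, 129 and 92.2 FPKM against 14.96, 15.1, 19.8 and 14.5 FPKM (3.17 ± 0.15), a call lost with hippocampal FPKM multiplied by transcript length (0.39, adjusted p = 0.0362). Malat1, the RNA of nuclear speckles, was listed at 0 in each nuclei library of both genotypes and at 2069, 1855, 1465 and 1746 FPKM in the control hippocampus, so that no fold is given. An exact 0 in such files can be a failed estimate. Of 10 tested long noncoding RNAs 2 were higher and 6 lower (median -1.39), and leaving out Malat1 2 of 9 were higher and 5 lower (median -1.27), among them the imprinted Meg3 (-1.50; 52.1 to 72.5 against 272 to 352 FPKM) and Rian (-2.25) and the neuronal Miat (-1.27). Of the 8 long noncoding RNAs tested with the multiplied values, none was higher and 6 were lower (median -2.70). The call of Kcnq1ot1 (0.60) was lost without control hippocampus 2 and 3 or nuclei 4 in turn (log2 0.41 to 0.58, adjusted p from 0.0258 to 0.0358), by the fold. Transcripts with detained introns, spliced late in the nucleus, were higher in 9 of 10 (median 2.09). Ogt, the enzyme that attaches N-acetylglucosamine to nuclear proteins, was at 149, 179 and 176 FPKM against 13.6, 12.7, 9.47 and 13.1 FPKM (4.37 ± 0.16), followed by the cyclins Ccnl2 (3.85) and Ccnl1 (2.42) and the splicing kinases Clk1 (3.63 ± 0.20) and Clk4 (2.93). Mdm4, a regulator of p53, did not pass (-0.21). Of 14 tested immediate early genes, induced by activity or stress, 5 were higher and 3 lower (median -0.01), and without the filter 3 of 18 were higher and 4 lower. Jund was higher (2.40 ± 0.15; 43.8 to 60.8 against 8.14 to 10.8 FPKM), with the phosphatase gene Dusp1 (1.53), and Nr4a2 was lower (-2.92), with Egr3 (-2.42). Jun did not pass (0.15), Fosb was under the filter, and the calls of Fos (0.61) and Junb (0.89) failed when single libraries were left out: that of Fos was lost without control hippocampus 1, 3 and 4 or nuclei 1, 3 and 4 in turn (log2 0.51 to 0.68, adjusted p from 0.0554 to 0.112), and that of Junb was lost without control hippocampus 1, 2, 3 and 4 or nuclei 1 and 3 in turn (log2 0.61 to 0.94, adjusted p from 0.0621 to 0.173).

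The largest differences of all belonged to loci of small RNAs. Of 328 tested genes of this kind 68 were higher (20.7%) and 12 lower (3.66%), both smaller shares than the 29.7% and 32.6% of all genes, with a median difference of 3.20. Of the 10 largest positive differences all were microRNA or small nucleolar RNA loci (Mir100, Snord4a, Snora20, Mir7052, Mir7045, Mir3473d, Mir7051, Mir1982, Mir6538 and Mir8114), and all but Mir8114, at 7.65e-07 to 6.94e-05 FPKM, were listed at 0 in the 4 control hippocampus libraries. Mir100, for example, was at 6566, 8812 and 5264 FPKM in the nuclei and Snord4a at 3065, 4039 and 2518 FPKM. The largest negative differences were in Snora30, Mir3091 and Snora21, listed at 0 in the control nuclei and at 1432 to 2416, 819 to 2173 and 501 to 830.2 FPKM in the hippocampus, in Malat1 and in Mir690, Lrrc17, Gm20594, Ttr, Hbb-bs and Hba-a2. In the Hdac1 cKO nuclei Snora30 was listed at 0 as well, but Mir3091 was at 0 to 1654 FPKM and Snora21 at 0 to 21.8 FPKM. Lrrc17, a leucine-rich repeat gene, was at 1.66, 2.15 and 2.61 FPKM in the nuclei and 1455, 1641, 1182 and 1474 FPKM in the hippocampus (-8.58 ± 0.17). Neither library kind was made from size-selected small RNA, the loci are 56 to 128 bases long, and 22 of the 23 named lie inside another gene (RefSeq, GRCm38.p6), so that reads of the host cannot be told apart from reads of the small RNA. A host had FPKM for 19 of these loci, and 13 of the 19 loci were higher in each nuclei library than in any hippocampus library. Those named for the largest differences, in either direction, were picked among called genes without overlap, so that this count was partly fixed by the choice. It cannot be set against the 65.7% of all tested genes that did not overlap between the groups. The host was higher in the same sense for 7 of the 13, lower for 5 and overlapping for 1, and for the 3 loci that were lower the host was lower too. Ddx5, the host of Mir3064, was at 220.6 to 291.6 FPKM in the nuclei and 109.9 to 124.6 FPKM in the hippocampus, whereas Rpl23a, the host of Snord4a, was at 163.8 to 191.9 and 1799 to 1956 FPKM.

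Of the 15 genes of highest rank in the control nuclei, 13 were such loci and 2 coded for proteins, Cst3 and Apoe. Mir3082, inside Stub1 and Jmjd8, led with 30650, 16820 and 26680 FPKM against 989.9, 904, 2810 and 675 FPKM (4.71 ± 0.52). Mir3064, inside Ddx5, stood at 18270, 24470 and 13560 against 2353, 358, 742 and 0 FPKM and did not pass (7.30) except without control hippocampus 4, its library at 0 (5.07, adjusted p = 0.00394). Mir29c was at 3761, 6775 and 6496 against 382, 39.5, 173 and 609 FPKM (5.57 ± 0.89). The remaining loci of this set were Mir100, Mir7674, Mir7224, Snord4a, Snord104, Snord100, Snora20, Snord99, Mir7052 and Snora61. Snord104 (-0.08), Snord100 (7.34; 9.04 and adjusted p = 0.0494 without control hippocampus 2) and Snord99 (3.16) did not pass, and Snord104 was at 3.93 with hippocampal FPKM multiplied by transcript length. The call of Mir7674 was lost without control nuclei 3 and 4 in turn (log2 9.79 to 10.14, adjusted p from 0.0527 to 0.0561), that of Snora61 was lost without control hippocampus 3 and 4 or nuclei 1 and 4 in turn (log2 8.97 to 9.66, adjusted p from 0.0503 to 0.0625) and that of Mir7224 was lost without control hippocampus 1, 2 and 3 or nuclei 1, 3 and 4 in turn (log2 8.54 to 10.02, adjusted p from 0.10 to 0.121).

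The mature products of the 4 microRNA loci that led by rank in the nuclei are shown to identify them (RefSeq, GRCm38.p6), 5' to 3', with the seed, bases 2 to 8, in capitals. The FPKM above belong to the loci and not to these products, and no 2 of the 8 share a seed.
mmu-miR-3082-5p: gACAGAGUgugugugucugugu
mmu-miR-3082-3p: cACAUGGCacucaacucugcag
mmu-miR-3064-5p: uCUGGCUGuuguggugugcaaa
mmu-miR-3064-3p: uGCCACACugcaacaccuuaca
mmu-miR-100-5p: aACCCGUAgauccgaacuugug
mmu-miR-100-3p: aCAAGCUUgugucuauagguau
mmu-miR-29c-5p: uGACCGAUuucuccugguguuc
mmu-miR-29c-3p: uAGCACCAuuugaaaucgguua

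Among genes annotated as protein-coding, chosen for their size after the values were seen, the largest positive differences were in Cml3, an N-acetyltransferase homologue, at 114, 164 and 258 FPKM against 0, 0.0856, 0 and 0.128 FPKM (8.18), and in Grin2c, an NMDA receptor subunit, at 223, 226 and 195 against 0.588, 2.51, 2.47 and 2.45 FPKM (6.999 ± 0.27), ahead of Hes5, Slc27a1 and Mertk. Each of these 5 was higher in all 3 nuclei libraries than in any hippocampus library. They were picked among called genes whose groups did not overlap, so that this was fixed by the choice. It cannot be set against the 65.7% of all tested genes without overlap, in either direction.

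The same contrast in the Hdac1 cKO mice called 4682 genes higher (31.0% of 15105) and 5119 lower (33.9%). Of the genes higher in control mice 3986 were higher in the Hdac1 cKO mice as well (88.3% of the control calls and 85.1% of the Hdac1 cKO calls), and none was lower. Of the lower genes 4421 were shared (89.0% and 86.4%), and 4 were higher. The list medians were close for astrocyte glutamate handling (3.57 and 3.59), astrocyte transcription factors (2.68 and 2.77), pan-neuronal genes (-2.39 and -2.74) and microglia (-1.27 and -1.57), and farther apart for ependymal genes (-2.27 and -1.19) and the choroid plexus (-2.24 and 0.47). In the Hdac1 cKO mice 2 of 8 ependymal genes were higher and 5 lower. A test of the difference between the contrasts, as an interaction term in limma, called 3 of 15272 genes (0.0196%), and 1252 genes had an unadjusted p under 0.05. Socs2, an inhibitor of cytokine signalling, was at 3.25, 5.82 and 4.27 FPKM in the control nuclei and 36.8, 26.4, 43.7 and 49.5 FPKM in the nuclei libraries labelled Hdac1 cKO, but at 13.0 to 14.9 and 12.8 to 20.3 FPKM in the hippocampi of the 2 genotypes, so that the contrast differed by 3.04 (adjusted p = 1.82e-05). For Tekt1, a cilium gene of the ependymal list, the nuclei were at 2.89 to 4.64 and 5.56 to 7.82 FPKM and the hippocampi at 6.40 to 10.1 FPKM in control and 1.19 to 2.69 FPKM in Hdac1 cKO mice (difference 2.31, adjusted p = 0.00162). Smim5, a small membrane protein, differed by 3.45 (adjusted p = 0.00879), with 2.91 to 12.2 FPKM in the control and 0 to 0.830 FPKM in the Hdac1 cKO hippocampi. Of the 3 genes, only Socs2 had hippocampus levels that overlapped between genotypes.

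**Figure D5:**
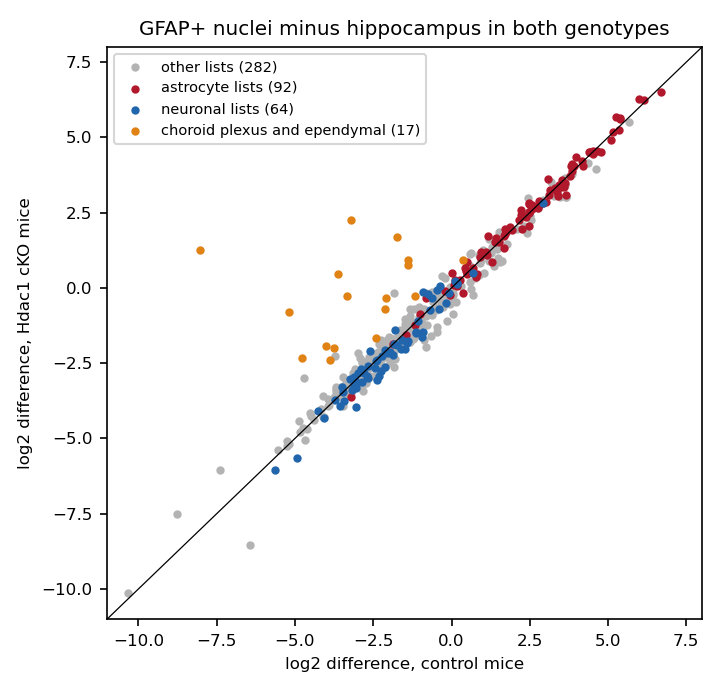
Log2 difference of GFAP+ nuclei minus hippocampus for list genes tested in both genotypes, control mice on the x axis and Hdac1 cKO mice on the y axis, with a line of equal values. Astrocyte and neuronal genes follow the line, while choroid plexus and ependymal genes, in orange, mostly lie above it.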

How the data were processed

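RNA of GFAP+ cortical nuclei and of whole hippocampus was sequenced in control and Hdac1 cKO mice. The authors aligned reads to the mouse genome mm9 with TopHat2 and deposited 1 table of FPKM per library, made with Cufflinks 2.0.0 (tools as the study's methods and the submitters' processing notes name them); read counts were not used here. FPKM divide by transcript length, which lowers long genes in 3' end libraries. FPKM were quantile normalized within a contrast (rank matching), and log2(FPKM + 1) was tested with limma 3.58.1 in R 4.3.3 (trend and robust) for genes at a mean of 0.5 FPKM or more, with Benjamini-Hochberg adjustment over all genes tested. Genes were called at an adjusted p under 0.05 and 1.5-fold. On simulated data with 100 genes changed at a log2 size of 1 and 100 at 2, among 15223 genes of the control contrast, 32% and 84% were called in the right direction. In the control contrast itself 29.7% of genes were called higher and 32.6% lower. The adjustment is less strict with so many changes, so that the 32% and 84% do not give the sensitivity of that contrast. Single genes were checked with a two-sided exact permutation test of percentile ranks. The text names the 5 markers, the 10 largest differences in each direction among called genes without overlap, the 15 genes of highest rank in the nuclei, and of each list its first 4 members and those of largest difference, with further members as examples. The members and lists were chosen with earlier results of these data known. Alternatives were no rank matching, percentile ranks, multiplication of hippocampal FPKM by transcript length, other pseudocounts, filters and call rules, a replicate block, each library left out, and, chosen after seeing the data, leaving out small RNA genes. Coordinates are mm9, and sequences are from RefSeq (GRCm38.p6). The study gives a mean read yield over its samples but none per library, so no counting intervals are given. Genes encoded in the mitochondria and control GFAP+ nuclei number 2 were not analysed here.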

Additional observations from a re-analysis of the deposited data

Results flagged for a closer look

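In 4 control hippocampus libraries, 24 of 221 named genes had 1 library farther from the others, in its gap over the group's range, than Dixon's critical value allows, and chance flags about 1 in 20 such groups. The gaps were 0.896 for Cst3, 0.975 for C3, 0.846 for Rbfox3, 0.851 for Gad2, 0.842 for Bcl11b, 0.841 for Olig1, 0.861 for Cx3cr1, 0.838 for Tmem212, 0.969 for Rarres2, 1.0 for Hbb-b1, 0.883 for Neat1, 0.848 for Fos, 0.971 for Grin2c, 0.929 for Fcrls, 0.928 for Gjb6 and 0.914 for Osmr. Loci of small RNAs with such a gap were Mir3082 (0.852), Mir7674, Mir7224 and Snora61 (each 1.0, with 1 library above 0 and 3 at 0) and Mir8114 (0.935). The remaining genes were Dusp1 (0.843), Rian (0.834) and Hsph1 (0.946).

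Of 84 sums of list members by group, 6 had 1 library apart in the same way. In the control hippocampus these were astrocyte glutamate and amino acid handling (0.882), astrocyte secreted and matrix genes (0.866) and cytosolic ribosomal protein genes (0.896). In the Hdac1 cKO mice they were astrocyte receptors in the nuclei (0.869) and in the hippocampus excitatory neurons (0.714) and the choroid plexus (0.968).

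The difference between nuclei and hippocampus was itself different between control and Hdac1 cKO mice, by the interaction test in limma, for Tekt1 (2.31 on the log2 scale), Smim5 (3.45) and Socs2 (3.04).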

How the results depend on the processing

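The counts of 4516 higher and 4969 lower genes stayed within 1.5 times under each alternative other than the 4-fold threshold, which left 1182 and 1304. They ran from 4257 to 4493 and from 4775 to 4913 when single libraries were left out, and in the Hdac1 cKO mice from 4644 to 4692 and from 5032 to 5109. Of 221 named genes, 5 changed sign without rank matching: Glul (-0.058), Sparcl1 (-0.38), Mbp (-0.59), Uqcrc1 (-0.17) and Mt2 (-1.08). Among the named genes that could be tested with hippocampal FPKM multiplied by transcript length, 13 did: Fabp7 (1.504), Mt1 (0.18), Nfia (-1.49), Nfib (-1.47), Zbtb20 (-0.54), Rorb (-1.28), Mbp (-0.63), Mog (0.83), Vcan (-0.54), Ly6a (0.72), Ly6c1 (0.60), Snord104 (3.93) and Adarb2 (-0.79). Genes without a transcript length had no value there. With small RNA genes left out before rank matching, chosen after seeing the data, Mt1 (0.48) and Hspa8 (0.0053) did, among the named genes that are not small RNA genes. The cause was not tested beyond what each alternative changes.

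Same-numbered libraries did not deviate together (correlations of 0.0545, -0.0028 and 0.014 in control mice). With a replicate block, which leaves out control hippocampus 2, there were 4292 higher and 4761 lower genes, 4623 and 5067 in the Hdac1 cKO mice, and 205 of 221 named genes kept direction and call. The depth of each library was not given in the sources used here, so that genes near 0 FPKM carry an error not given here.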
